A study of Mus musculus with 8 samples.

Results

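The neural stem and progenitor markers described here are the genes Nes, Pax6, Sox1, Sox2, Sox3, Sox9, Vim, Fabp7, Msi1 and Gli3. They were chosen as genes that mark the neural stem cell and radial glia stage, and every probe set annotated to 1 of these symbols alone was taken. This gave 26 probe sets of 10 genes, of the 18193 genes with a probe set of their own on the arrays. RNA was measured on 8 Affymetrix mouse arrays. Dissociated cerebral hemispheres of mouse embryos of the ICR strain, 15 days old, were grown as mixed primary cultures for 5 days in D-MEM with 10% serum (FBS). Oligodendrocyte precursor cells, which give rise to myelin-forming oligodendrocytes, were prepared from them and held in serum-free medium for 48 hr, at 37 °C in 4 samples and at the mild hypothermia of 31.5 °C in 4 samples. All samples therefore share the strain, the embryonic origin and the change from serum to serum-free medium, and differ in the labels only by temperature. The labels speak of 3 mice per group beside 4 arrays and do not say whether the arrays came from separate cultures, so p-values measure only the spread between these samples, which may be technical.

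Neural stem cells of the embryonic cortex, the radial glia, first make neurons and later astrocytes and oligodendrocyte precursors. SoxB1 factors, Pax6 and the RNA-binding protein Msi1 are known to hold progenitors in an undifferentiated state, nestin and vimentin form their cytoskeletal filaments, and Gli3 sets the strength of Hedgehog signalling. Precursor cells of the oligodendrocyte lineage keep some of these genes, Sox2 and vimentin among them, and astrocytes keep Sox9, Vim and Fabp7.

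The files give no detection calls, but all 10 markers had a clear signal in these cultures: each gene had at least 1 probe set that passed the filter on dim probe sets (a mean scaled signal of 38.3), and the lowest signal of the 18 that passed, on any array, was 49.0 against a floor of 9.80. Of these 18 probe sets, 4 rose at 31.5 °C, from the genes Sox1, Msi1 and Gli3 (both of its tested probe sets), and 0 fell. The rises were small, 1.31- to 1.44-fold. The other 14 probe sets did not pass the test, and 7 genes (Nes, Pax6, Sox2, Sox3, Sox9, Vim and Fabp7) had no probe set that did. The test was limma's moderated test of the log2 signal at 31.5 °C minus 37 °C, adjusted by the Benjamini-Hochberg method over all 22519 probe sets tested, with a threshold of 0.05. At an unadjusted p under 0.05 the counts were likewise 4 higher and 0 lower. The share of all tested probe sets or genes at that unadjusted p was not counted. Such counts, here and for the lists below, therefore have no background to be read against. The count of 4 was sensitive to single arrays: it was 0 without replicate 3 at 31.5 °C or replicate 1 at 37 °C, 2 without replicate 3 or 4 at 37 °C and 1 without any other array. It was also 0 when the probe sets of a gene were averaged and 1 when no filter was set. Leaving out 1 array also cut the number of all tested probe sets that rose, from 1469 to between 765 and 1278. Of all tested probe sets 6.52% rose and 6.83% fell, against 22.2% of the tested probe sets of the markers that rose. In bulk RNA of a mixed culture, fewer cells of a type and less RNA per cell cannot be told apart.

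The array replicates carry numbers 1 to 4 in both groups, and arrays of the same number deviated together, so a second fit, blocked on that number, is also given wherever the 2 fits make different calls. With this block 5 of the 18 probe sets rose, the fifth being a Pax6 probe set, and 0 fell, while 12.4% of all tested probe sets rose and 13.9% fell. The 4 probe sets called without the block were called with it too, at smaller adjusted p-values. These were 0.0137 for Sox1 1438729_at, 0.0161 for Msi1 1452287_at, and 0.0249 and 0.0278 for Gli3 1456067_at and 1455154_at (limma). Unless the block is named, calls, SEs and intervals are from the fit without it.

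**Figure D1:**
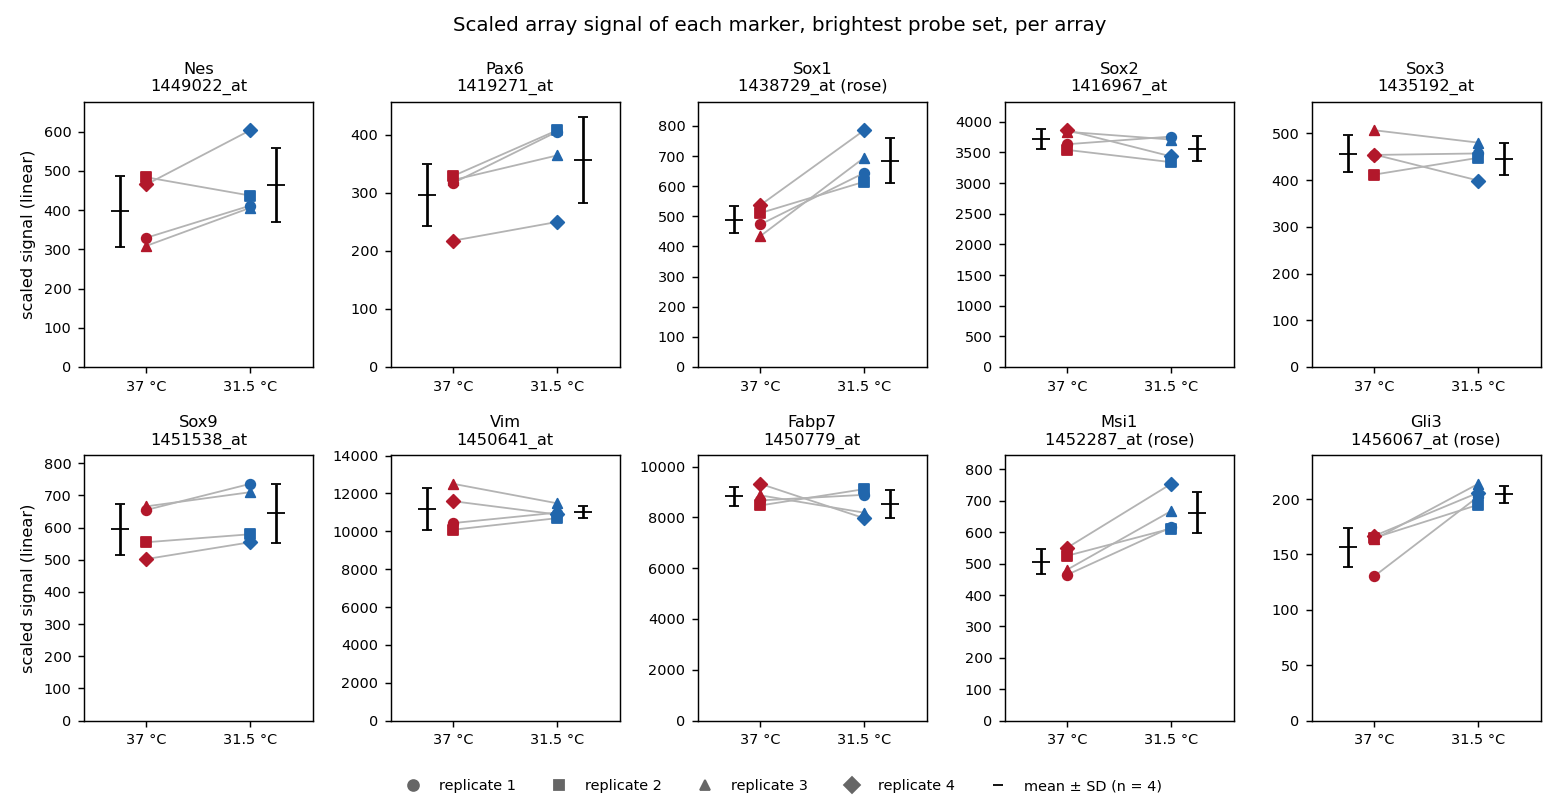
Scaled signal (linear axis from 0) of the brightest probe set of each marker on the 4 arrays at 37 °C and the 4 at 31.5 °C, with arrays of the same replicate number joined by a line and the mean ± SD (n = 4) beside each group. For Sox1, Msi1 and Gli3 all 4 arrays at 31.5 °C lie above all 4 at 37 °C, whereas the groups of the other 7 genes overlap.

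Promoters of 2 markers that rose and 2 that did not pass are shown so that the regions before their starts can be compared. They are the 250 bases before the RefSeq gene start on the plus strand of GRCm38.p6, and the choice of genes was made after the values were seen. Capitals mark the CCAAT box (CCAAT or its reverse complement ATTGG), the GC box (GGGCGG or CCGCCC) and the TATA box (TATAAA or TTTATA), none of which overlap in these windows. Sox1 (chr8:12395269-12395518) and Gli3 (chr13:15463473-15463722) rose, and Sox2 (chr3:34649745-34649994) and Vim (chr2:13574061-13574310) did not pass.
Sox1: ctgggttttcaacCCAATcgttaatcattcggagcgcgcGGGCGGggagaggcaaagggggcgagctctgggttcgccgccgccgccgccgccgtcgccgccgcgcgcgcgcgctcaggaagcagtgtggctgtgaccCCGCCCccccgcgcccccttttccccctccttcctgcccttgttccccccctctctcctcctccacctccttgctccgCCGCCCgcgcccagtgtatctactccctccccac
Gli3: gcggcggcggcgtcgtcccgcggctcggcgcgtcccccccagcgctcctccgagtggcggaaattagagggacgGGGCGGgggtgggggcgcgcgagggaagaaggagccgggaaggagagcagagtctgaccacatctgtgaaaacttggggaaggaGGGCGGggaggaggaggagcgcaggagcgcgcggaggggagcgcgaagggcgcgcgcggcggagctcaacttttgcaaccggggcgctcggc
Sox2: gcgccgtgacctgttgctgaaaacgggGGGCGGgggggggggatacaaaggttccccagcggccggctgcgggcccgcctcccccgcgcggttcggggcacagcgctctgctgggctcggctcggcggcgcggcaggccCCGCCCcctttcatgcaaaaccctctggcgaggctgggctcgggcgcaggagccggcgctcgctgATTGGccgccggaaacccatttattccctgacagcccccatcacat
Vim: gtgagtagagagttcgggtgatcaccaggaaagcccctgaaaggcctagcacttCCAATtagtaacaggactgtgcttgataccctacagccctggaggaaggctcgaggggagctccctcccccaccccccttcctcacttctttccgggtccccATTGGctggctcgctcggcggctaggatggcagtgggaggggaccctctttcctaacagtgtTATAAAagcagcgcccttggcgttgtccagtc
The Sox1, Gli3 and Sox2 windows were rich in G and C, at 71.2%, 72.8% and 72.0%, against a median of 52.4% over all 32851 RefSeq mouse promoters of the same length and 58.4% in Vim. The Sox1 window held 1 CCAAT box and 3 GC boxes, that of Gli3 held 2 GC boxes, that of Sox2 held 1 CCAAT box and 2 GC boxes, and that of Vim held 2 CCAAT boxes and 1 TATA box 27 bases before the start. RefSeq promoters were listed for 7 of the 10 markers (8 promoters, as Pax6 has 2), and Sox3, Sox9 and Msi1 were not matched. Of the 8 promoters, 5 held a CCAAT box (33.8% of all promoters), 4 a GC box (32.7%) and 1 a TATA box (12.4%). These matches describe the letters only.

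Sox1, Sox2 and Sox3 are the SoxB1 transcription factors, which share a DNA-binding domain and act in early neural progenitors. Of the 3, only Sox1 had a probe set that passed the test, and differences between the genes were not tested. The scaled signals of Sox1 probe set 1438729_at were 644, 615, 695 and 786 in replicates 1 to 4 at 31.5 °C and 473, 511, 434 and 537 at 37 °C. Every array at 31.5 °C was above every array at 37 °C. The means of the colder and the warmer group were 685 ± 74.9 and 489 ± 44.9 (SD, n = 4), a difference of 0.48 ± 0.11 (SE) on the log2 scale or 1.40-fold (limma, adjusted p = 0.0224; 95% interval 0.24 to 0.73). The 4 pairs of the same number gave log2 differences of 0.45, 0.27, 0.68 and 0.55.

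The dimmer Sox1 probe set 1422205_at did not share this difference. Its signals were 102, 106, 99.4 and 152 at 31.5 °C and 133, 124, 90.7 and 111 at 37 °C, and the groups overlapped. Its log2 difference was -0.01 ± 0.17 (95% interval -0.39 to 0.38), with 2 pairs below and 2 above 0. On the log2 scale the 2 Sox1 probe sets differed by 0.49 in their response, and their ratio did not overlap between the groups (exact two-sided permutation test, p = 0.0286, the smallest that 70 splits can give; 0.229 after adjustment over 8 such pairs of probe sets). A single pair of probe sets at this smallest p cannot pass after the adjustment, so the adjusted value decides nothing. The splits also did not keep arrays of the same number together. With the mean of the 2 probe sets in place of single ones, Sox1 gave 0.24 and an adjusted p of 0.255 (limma). The call on 1438729_at was also lost without replicate 3 at 31.5 °C (adjusted p = 0.0629), without replicate 1 at 37 °C (0.0532) and, in the blocked fit, without pair 3 (0.0502). Its log2 difference ran from 0.42 to 0.53 with 1 array left out.

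Sox2, which is also needed for stem cell self-renewal and is kept in oligodendrocyte precursors, had 1 probe set. Its signals were 3759, 3341, 3710 and 3435 at 31.5 °C and 3634, 3541, 3837 and 3862 at 37 °C. The groups overlapped, and the log2 difference was -0.06 ± 0.08 (95% interval -0.25 to 0.12; limma, adjusted p = 0.658). The interval leaves out a difference as large as the 0.48 estimated for Sox1. The brighter Sox3 probe set, 1435192_at, read 457, 448, 480 and 399 at 31.5 °C and 454, 412, 507 and 455 at 37 °C, a log2 difference of -0.03 ± 0.10 (95% interval -0.25 to 0.19). The dimmer one, 1450485_at, read 79.0, 65.3, 78.9 and 79.7 against 49.0, 50.7, 89.7 and 67.9, a log2 difference of 0.27 ± 0.19 (95% interval -0.16 to 0.71; limma, adjusted p = 0.383). For the dimmer probe set the group at 37 °C was the more scattered, with an SD of 19.0 against 6.98.

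**Figure D2:**
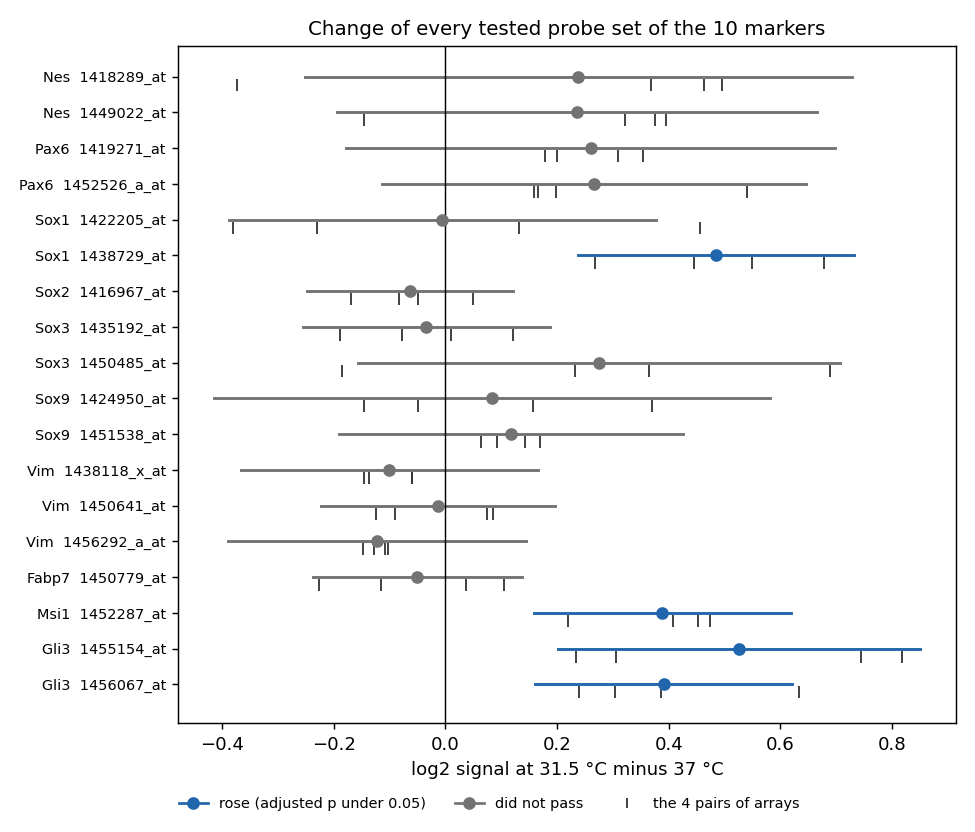
Log2 difference at 31.5 °C minus 37 °C for each of the 18 tested probe sets, with the point at the estimate, the bar over its 95% interval and the short ticks at the differences of the 4 pairs. The 4 probe sets that rose, of Sox1, Msi1 and Gli3, lie between 0.39 and 0.53, and the second Sox1 probe set lies at -0.01.

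Msi1 encodes Musashi 1, which binds messenger RNAs and controls their translation in neural stem cells. Its probe set 1452287_at read 616, 612, 668 and 754 at 31.5 °C and 465, 525, 481 and 551 at 37 °C. All 4 arrays at the lower temperature were above all 4 at the higher. The means were 662 ± 66.3 and 505 ± 39.7 (SD, n = 4), a rise of 0.39 ± 0.10 on the log2 scale or 1.31-fold (limma, adjusted p = 0.0375; 95% interval 0.16 to 0.62). The pairs gave 0.41, 0.22, 0.47 and 0.45. The other 2 Msi1 probe sets, 1421409_at and 1444306_at, were too dim to be tested. Leaving out any 1 array other than replicate 4 at 37 °C ended this call, with adjusted p-values up to 0.0938 and log2 differences from 0.32 to 0.42. Without the filter on dim probe sets the adjusted p was 0.0563, with the mean of the 3 probe sets the log2 difference was 0.27 (adjusted p = 0.335), and the blocked fit without pair 1, 3 or 4 did not call it either.

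Gli3 is a zinc finger transcription factor that in the absence of Hedgehog ligand is cut to a repressor of the pathway's targets. Probe set 1456067_at read 202, 195, 214 and 206 at 31.5 °C and 130, 165, 164 and 167 at 37 °C, with no overlap. Its means of 204 ± 7.85 and 156 ± 17.4 (SD, n = 4) gave a rise of 0.39 ± 0.10 on the log2 scale, 1.31-fold (limma, adjusted p = 0.0366; 95% interval 0.16 to 0.62). Probe set 1455154_at read 118, 106, 118 and 153 against 70.7, 85.7, 99.9 and 86.8. This second probe set also had no overlap, and rose by 0.53 ± 0.14 or 1.44-fold (limma, adjusted p = 0.0433; 95% interval 0.20 to 0.85). Both probe sets were higher in 4 of 4 pairs, and their changes differed by 0.13 (exact two-sided permutation test, p = 0.257; 0.571 after adjustment). Another Gli3 probe set, 1450525_at, was too dim to be tested.

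The Gli3 calls were close to the threshold. That on 1456067_at was lost when any 1 array was left out (adjusted p from 0.0522 to 0.0997), and that on 1455154_at was lost without any 1 array other than replicate 3 at 37 °C (up to 0.0920). With 1 array left out the log2 differences ran from 0.31 to 0.42 for 1456067_at and from 0.42 to 0.60 for 1455154_at. In the blocked fit 1456067_at was lost without any 1 pair, and 1455154_at without pair 1, 2 or 4. Scaling the arrays to a common median ended the call on 1456067_at (0.0503), and so did the mean of the gene's probe sets (0.106), while testing all probe sets without the filter ended both (0.0545 and 0.104).

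**Figure D3:**
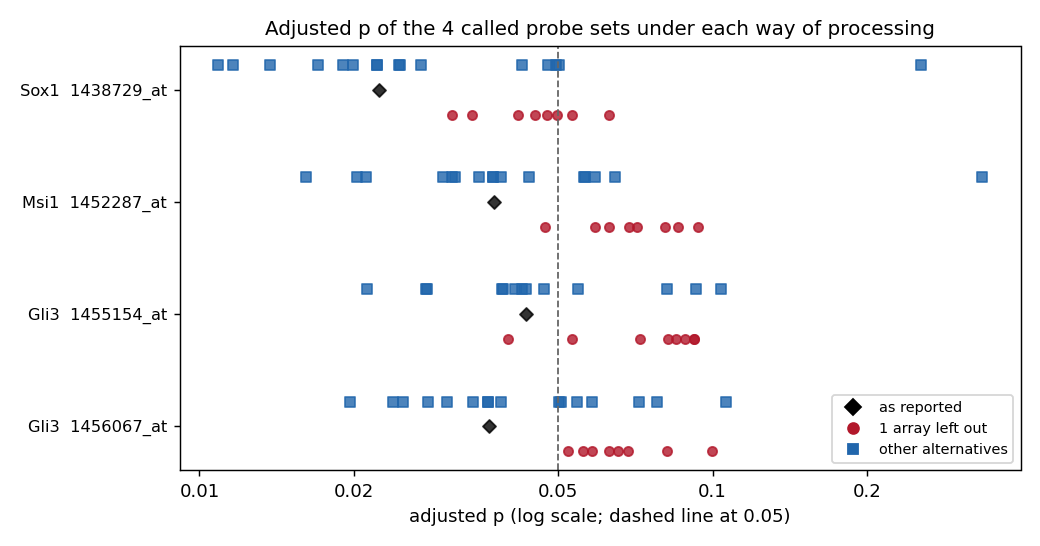
Adjusted p (log axis, dashed line at the threshold of 0.05) of the 4 probe sets that rose, as reported (diamonds), with 1 array left out (circles) and under the other ways of processing (squares). Sox1 1438729_at stayed past the threshold in 20 of 24 alternatives, Msi1 in 12 of 24, Gli3 1455154_at in 10 of 21 and Gli3 1456067_at in 9 of 24.

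Sox9, a SoxE transcription factor that starts gliogenesis and stays on in astrocytes, followed the replicate number far more than the temperature. Its brighter probe set, 1451538_at, read 736, 579, 710 and 554 at 31.5 °C and 655, 554, 666 and 502 at 37 °C. The same arrays were high at both temperatures, those of replicates 1 and 3. All 4 pairs were slightly higher at 31.5 °C (0.17, 0.06, 0.09 and 0.14), and the log2 difference of 0.12 ± 0.14 did not pass (limma, adjusted p = 0.620, and 0.230 with the block; 95% interval -0.19 to 0.42). The second probe set, 1424950_at, read 623, 422, 500 and 299 against 482, 436, 449 and 330 and gave 0.08 ± 0.22. Of the variance of 1451538_at over the 8 arrays, 10.1% went with temperature and 88.6% with replicate number.

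Pax6 is the paired-box factor of cortical radial glia. Probe set 1419271_at read 406, 408, 365 and 250 at 31.5 °C and 317, 329, 322 and 218 at 37 °C. Replicate 4 was the lowest at both temperatures, and the groups overlapped. The log2 difference was 0.26 ± 0.19 (limma, adjusted p = 0.416; 95% interval -0.18 to 0.70). With the replicate number as a block the same difference had an SE of 0.07 and passed (adjusted p = 0.0411), with the pairs at 0.35, 0.31, 0.18 and 0.20, but it did not pass in the blocked fit without any 1 pair. The second Pax6 probe set, 1452526_a_at, read 143, 156, 119 and 98.9 against 128, 107, 106 and 86.3, gave 0.27 ± 0.17 and did not pass with the block either (adjusted p = 0.0774). Another 3 Pax6 probe sets were too dim to be tested.

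Nestin (Nes), the intermediate filament protein by which neural stem cells are most often recognised, did not pass on either tested probe set. Probe set 1449022_at read 411, 437, 406 and 603 at 31.5 °C and 329, 484, 309 and 465 at 37 °C. Replicate 2 ran the other way from the other 3 pairs, and the log2 difference was 0.24 ± 0.19 (limma, adjusted p = 0.456; 95% interval -0.19 to 0.67). Probe set 1418289_at read 77.1, 114, 132 and 161 against 99.97, 81.0, 102 and 117, also 0.24 on the log2 scale (SE 0.22), and here replicate 1 ran the other way. In the blocked fit on all arrays neither Nes probe set passed (limma, adjusted p = 0.163 for 1449022_at and 0.305 for 1418289_at). Each passed only once its opposing pair was left out (0.0451 for 1449022_at without pair 2 and 0.0347 for 1418289_at without pair 1). Leaving out the pair that runs the other way favours a pass, so these fits are no support for a rise.

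Vimentin (Vim) is the partner filament of nestin and is shared by progenitors, astrocytes and fibroblasts. Probe set 1450641_at read 10987, 10694, 11480 and 10889 at 31.5 °C and 10436, 10084, 12508 and 11589 at 37 °C, a log2 difference of -0.01 ± 0.09 (95% interval -0.22 to 0.20). The other 2 probe sets, 1438118_x_at and 1456292_a_at, were lower at 31.5 °C in 4 of 4 pairs, by 0.06 to 0.15. Neither passed: their log2 differences were -0.10 ± 0.12 and -0.12 ± 0.12 (limma, adjusted p = 0.622 and 0.543, and 0.202 with the block for 1456292_a_at). Fabp7, the brain lipid-binding protein of radial glia, read 8890, 9114, 8187 and 7967 at 31.5 °C and 8669, 8471, 8869 and 9322 at 37 °C. Its groups overlapped, with 2 pairs above and 2 below 0, and the log2 difference was -0.05 ± 0.08 (95% interval -0.24 to 0.14; limma, adjusted p = 0.739).

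Over the 18 probe sets the log2 differences were positive in 11 and negative in 7, with a median of 0.18 against -0.0048 over all tested probe sets. The groups did not overlap for 4 probe sets, the ones that rose, and 10.9% of all tested probe sets were higher without overlap. In 4 of 4 pairs 7 probe sets were higher, beside 23.7% of all tested. Another 2, both of Vim, were lower in 4 of 4 pairs, and the share of all tested that were so was not counted. The 8 probe sets under the filter (1 of Nes, 3 of Pax6, 1 of Sox9, 2 of Msi1 and 1 of Gli3) had signals of 2.08 to 63.4 and mean log2 differences of -0.31 to 0.45, and each overlapped between temperatures.

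The members split by what their variance went with. In the 4 probe sets that rose, 66.5% to 78.9% of the variance over the 8 arrays went with temperature and 13.0% to 19.4% with replicate number. In the 14 others temperature took at most 25.5%, and in 11 of them over 50% went with replicate number. The other 3 were Fabp7, with 12.1% for temperature and 6.73% for replicate number, Sox1 1422205_at, with 0.016% and 49.6%, and Sox2, with 20.1% and 49.3%. The medians over all tested probe sets were 24.4% for temperature and 46.5% for replicate number. Replicate number splits the arrays into 4 levels and temperature into fewer. It therefore takes a larger share even where neither has an effect, and the shares are not like for like. The first part of this split follows from the test, which reads the same arrays. The second is bound to it, since a large share for temperature leaves little for replicate number. How many of all probe sets that did not pass had over 50% with replicate number was not counted.

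**Figure D4:**
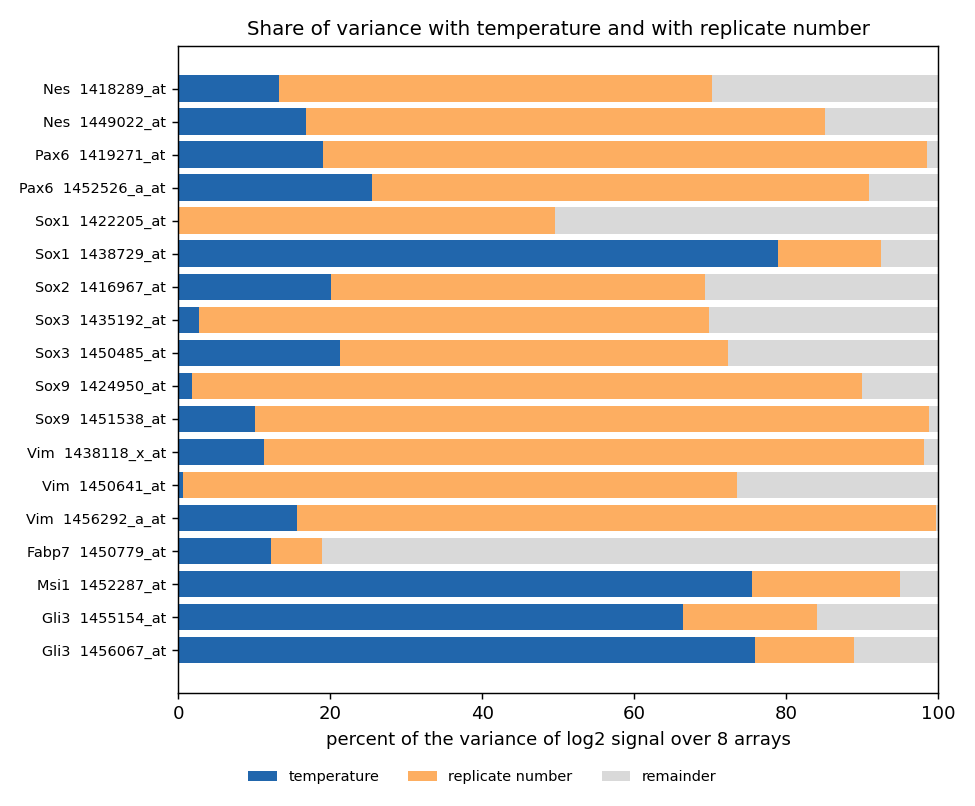
Percent of the variance of log2 signal over the 8 arrays that went with temperature (blue), with replicate number (orange) and with neither (grey), for each of the 18 tested probe sets. Temperature takes 66.5% or more in the 4 probe sets that rose, and replicate number takes 88.6% in Sox9 1451538_at and 79.5% in Pax6 1419271_at.

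Across the 8 arrays Sox1 1438729_at and Msi1 1452287_at ran almost in parallel. Among all tested probe sets of other genes, that of Msi1 had the highest correlation with Sox1 (Pearson 0.983, Spearman 0.976 over 8 arrays, a description without a test, since the arrays share their scaling and temperature). The gene most like Msi1 was Tgfbi (0.994), and that most like Gli3 was Actl6a (0.987). Sox9 was most like Metrn (0.993), Pax6 like Gna11 (0.989), Nes like Ccdc127 (0.974), Sox3 like Rpf1 (0.967), Sox2 like Pdik1l (0.961), Vim like B2m (0.955) and Fabp7 like Stk36 (0.946). Each value is the highest found among all tested probe sets with 1 gene symbol, over only 8 arrays. A search of that kind returns high values by itself, so the size of these correlations shows no link between the genes.

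Genes that act beside the markers were read from lists, each gene by its brightest tested probe set. Without the block 6.73% of the 11528 genes so tested rose and 6.90% fell, and 3 of the 10 markers rose. With the block the share of genes was not counted, and of all tested probe sets 12.4% rose and 13.9% fell. Of the 8 other Sox genes tested, 2 rose and 0 fell (limma; 1, Sox10, was lower at an unadjusted p under 0.05). Sox21, a SoxB2 factor that opposes SoxB1 activity, rose from 686 ± 64.9 to 956 ± 125 (0.47 ± 0.12 on the log2 scale; limma, adjusted p = 0.0349), and Sox5, a SoxD factor of oligodendrocyte precursors, rose from 182 ± 20.1 to 241 ± 12.6 (0.41 ± 0.10; adjusted p = 0.0300). These calls held in 13 of 24 alternatives each, and with the mean of its probe sets Sox5 gave 0.087. The list median was 0.0042, beside -0.0025 over all genes.

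In the Hedgehog pathway, in which Gli3 acts, 1 of the 9 other genes tested rose and 1 fell (list median 0.17). Smo, the membrane protein that passes on the Hedgehog signal, rose by 0.35 ± 0.10 (459 ± 35.2 to 584 ± 45.9; limma, adjusted p = 0.0448), a call held in 10 of 23 alternatives. Shh, the ligand, fell by 0.997 from 309 ± 81.7 to 151 ± 18.1 (SE 0.19; adjusted p = 0.0118), a call held in 23 of 24. Gli2, the main activator of the pathway, had 168 ± 47.0 at 31.5 °C and 103 ± 28.2 at 37 °C (0.70 ± 0.24; adjusted p = 0.0877) and passed with the block (0.00446). Of the genes the pathway switches on, Ptch1 differed by -0.13 (adjusted p = 0.406) while Gli1, at 9.92 and 8.18, and Hhip, at 14.9 ± 4.56 and 29.4 ± 13.3 (SD, n = 4) and lower in 4 of 4 pairs, were under the filter and not tested.

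Among the 17 other stem cell and radial glia genes tested, Notch1 and Ccnd2 rose and 0 fell (list median -0.037; 1, Ptprz1, was lower at an unadjusted p under 0.05). Notch1, a receptor that keeps neural progenitors undifferentiated, rose by 0.43 ± 0.12 (692 ± 57.0 to 937 ± 133; limma, adjusted p = 0.0457), a call held in 12 of 24 alternatives. Ccnd2, the D cyclin of cortical progenitors, rose by 0.50 ± 0.09 (2471 ± 171 to 3498 ± 293; adjusted p = 0.0114) in all 24. With the block Hmga2 also rose (0.70; adjusted p = 0.00591, and 0.20 without it) and Prom1 fell (-0.40; 0.0123, and 0.394 without it). Of 7 intermediate progenitor and neurogenic genes, Insm1 rose by 0.55 ± 0.10 (398 ± 38.5 to 583 ± 43.6; adjusted p = 0.0107, called in all 24 alternatives). The Notch ligand Dll1 missed the threshold by little (0.37 ± 0.10; adjusted p = 0.0501) and rose with the block (0.0246), as did Dll3 (0.24; 0.159 without the block and 0.0483 with it).

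None of 9 proliferation genes passed, with or without the block, at a list median of -0.033. Mki67 alone had an unadjusted p under 0.05 (-0.31; limma, adjusted p = 0.113). Of 3 other filament genes tested 0 passed (limma; 1, Ina, was lower at an unadjusted p under 0.05). Plec, which links filaments to other cell structures, gave 0.01 (limma, adjusted p = 0.981). Gfap and Ina, intermediate filaments of astrocytes and neurons, both gave -0.64 and did not pass (limma, adjusted p = 0.281 and 0.0612), but fell with the block (0.00491 and 0.00424). Of 3 other fatty acid binding proteins 2 fell, Fabp4 by 1.08 ± 0.21 (adjusted p = 0.0138) and Fabp3 by 0.55 ± 0.14 (0.0302), and Fabp5 differed by -0.04 (0.792). With the mean of its probe sets Fabp3 gave -0.17 (adjusted p = 0.667). Its call held in 17 of 24 alternatives and the Fabp4 call in 21 of 22.

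**Figure D5:**
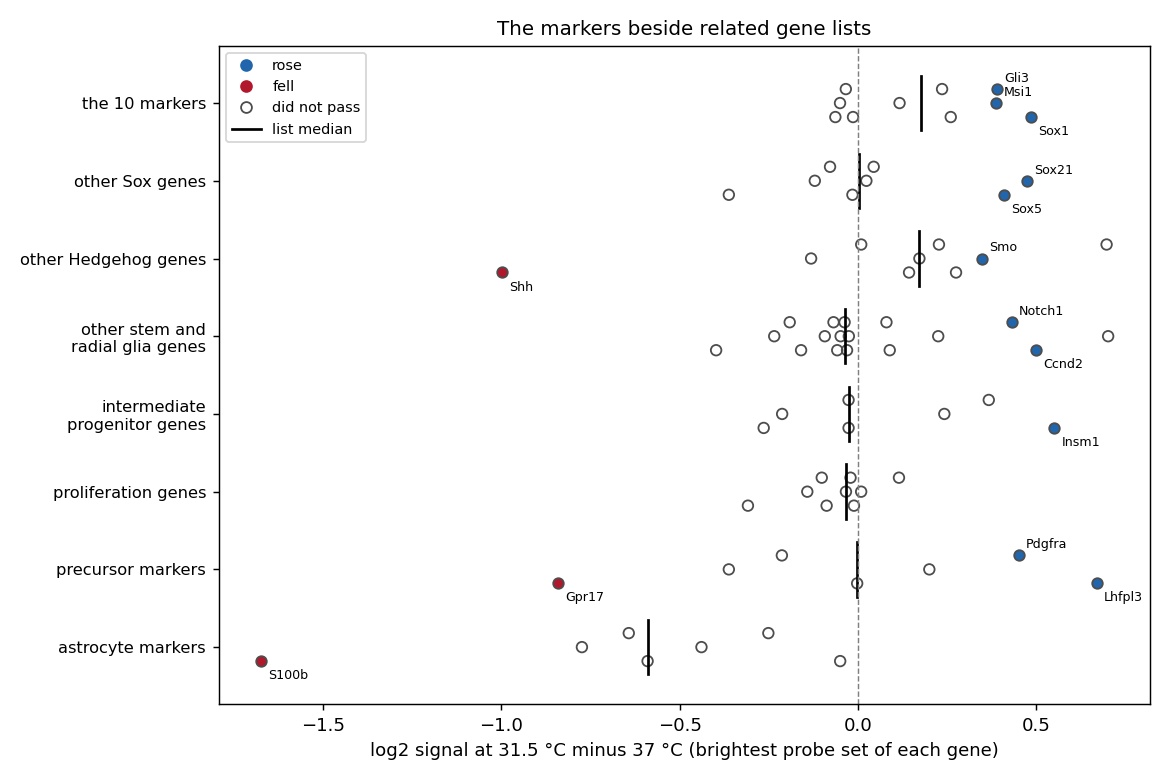
Log2 difference at 31.5 °C minus 37 °C of each tested gene (its brightest probe set) in the list of 10 markers and 7 related lists, with genes that rose in blue, genes that fell in red, others open and the list median as a bar. The medians are 0.18 for the markers, 0.17 for the other Hedgehog genes, -0.037 for the other stem and radial glia genes and -0.59 for the astrocyte markers.

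Markers of the cell types that a mixed cortical culture can hold were read in the same way. Their counts with the block stand beside 13.9% of all tested probe sets that fell with it. Of 7 oligodendrocyte precursor genes 2 rose, Pdgfra (0.45 ± 0.12; limma, adjusted p = 0.0444) and Lhfpl3 (0.67 ± 0.18; 0.0426), calls held in 15 and 16 of 24 alternatives, and Gpr17, which marks precursors about to differentiate, fell by 0.84 ± 0.10 (0.00216). Their summed signal ran from 13577 to 16143 at 31.5 °C and from 13446 to 17246 at 37 °C. All 5 tested myelin genes fell, with a summed signal of 8251 to 11965 against 16659 to 20760. Among them Mobp passed the filter only through the group at 37 °C, with means of 10.0 at 31.5 °C and 304 at 37 °C. Of 7 astrocyte genes S100b fell by 1.67 ± 0.12 (adjusted p = 0.000275), and 5 fell with the block; their sum was 7712 to 14644 against 11192 to 20073. Of 6 neuron, 8 microglia and 5 fibroblast genes 0 passed in either direction (at an unadjusted p under 0.05 limma gave 0, 1 and 0, all lower), and 1, 3 and 2 of them fell with the block. The summed signal ran from 9325 to 11798 against 9413 to 13279 for neurons, from 4556 to 8197 against 4983 to 11108 for microglia and from 637 to 1378 against 852 to 1416 for fibroblasts. The sum was lower at 31.5 °C in 4 of 4 pairs for the myelin, astrocyte, neuron, microglia and fibroblast lists. Endothelial genes were near background, with 4 of 5 under the filter and sums of 67.3 to 105 against 60.8 to 136, and the 1 tested, Kdr, gave -0.33 (limma, adjusted p = 0.569) and fell with the block (0.0484). The part of these cell types in the changes of Sox1, Msi1 and Gli3 was not tested.

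Genes that overlap a marker in the RefSeq annotation were also read, because the strand that the probe sets measure is not given in the sources used here; they were chosen after their values were seen. In Gli3 lies Gm6556, whose probe set 1441368_at read 38.6, 65.0, 57.9 and 46.7 at 31.5 °C and 25.9, 22.3, 34.6 and 26.4 at 37 °C. It rose by 0.92 ± 0.19 (limma, adjusted p = 0.0156), without overlap between the groups. The other Gm6556 probe set, 1457143_at, was under the filter, with means of 14.8 at 31.5 °C and 7.67 at 37 °C. Every signal of 1441368_at at 37 °C was below the filter value of 38.3, which it passed only through the group at 31.5 °C. A rise called this way is no support on its own. The call was lost with the floor raised to the 50th percentile, which gave 0.41 (adjusted p = 0.109), and without the filter (0.0541). Beside Pax6, the gene Elp4, a subunit of the Elongator complex, gave unlike results on its 2 probe sets. Probe set 1416987_at read 115, 117, 121 and 123 against 47.8, 48.2, 48.6 and 33.6 and rose by 1.43 ± 0.13 (adjusted p = 0.00061), and 1448535_at read 191 ± 47.5 against 205 ± 32.5 (-0.13 ± 0.20; adjusted p = 0.722). The long RNA Sox2ot, which contains Sox2, did not pass (564 ± 76.4 against 532 ± 62.8; 0.08 ± 0.13; adjusted p = 0.719).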

How the data were processed

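The deposited values are linear probe set intensity values on Affymetrix mouse arrays, which the authors computed with the MAS5 algorithm, as the submitters' processing notes name it; its version and scaling target are not given in the sources used here. Of 45101 probe sets, 64 controls were left out; 34945 carried 1 gene symbol, 932 several (none with a marker) and 9160 none. The 2% trimmed means differed up to 1.89-fold between arrays, so each array was scaled to their mean (factors 0.848 to 1.60). Values under the 25th percentile (9.80) were raised to it, log2 was taken, and probe sets whose mean reached the median of all means (38.3) were tested with temperature as the only term, two-sided, with limma 3.58.1 (lmFit, eBayes) in R 4.3.3. Single ratios were tested exactly over 70 splits with Python 3.11.15. The fit without the block was tested on simulated data in which the arrays were drawn independently. Those data held no shared effect of replicate number, so that test does not cover this feature of the real arrays.

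No 2 arrays shared more than 0.707% of their values. Arrays of the same replicate number correlated at 0.522, 0.385, 0.442 and 0.578 in their deviations from the group means, and arrays of different numbers at no more than 0.00334, so the numbers, which are in the sample titles, pair the arrays. Named are all markers, from each list the genes ranked first by p, 4 at most (some only within its counts), the gene most like each marker, and a few genes for their role or position. The markers and lists were chosen with earlier results of these data known. Alternatives were quantile normalization, median scaling, other floors, filters and probe set rules, array weights, an intensity trend, the replicate block and leaving out arrays or pairs. Promoters are RefSeq's, on GRCm38.p6; no genome coordinates of probes were used.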

Additional observations from a re-analysis of the deposited data

Results flagged for a closer look

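In 5 of 52 groups of 4 arrays examined, 1 array stood far from the other 3 on the log2 scale, by Dixon's test of its gap against the range of the group; chance flags about 1 in 20 groups. For Gli3 1456067_at, replicate 1 at 37 °C was lowest at 130, with the others at 164 to 167. For Sox1 1422205_at, replicate 4 at 31.5 °C was highest at 152, with the others at 99.4 to 106. For Pax6 1419271_at, replicate 4 at 37 °C was lowest at 218, with the others at 317 to 329. For Sox3 1450485_at, replicate 2 at 31.5 °C was lowest at 65.3, with the others at 78.9 to 79.7. For Sox9 1433889_at, a probe set under the filter, replicate 3 at 37 °C was highest at 24.5, with the others at 2.08 to 11.1.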

How the results depend on the processing

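Over the alternatives run, 0 marker probe sets fell, and the count that rose, 4 as reported, was 1 without the filter and 0 with the probe sets of a gene averaged; leaving out 1 array gave 0 to 2. With the replicate block it was 5, and 2, 3, 1 and 1 without pairs 1 to 4. The block changed no call of a marker other than that of Pax6 1419271_at. The median over tested marker probe sets, 0.18 as reported, was 0.27 with scaling to a common median, 0.10 without the filter and with the mean of probe sets, 0.083 with a filter at the 70th percentile, 0.24 without _x_at and _s_at probe sets, 0.13 in the blocked fit without pair 1, and 0.079 to 0.17 with 1 array left out. Over all tested probe sets 1469 rose and 1538 fell; the counts were 888 and 903 with 1 probe set per gene, 634 and 652 with the mean, 2799 and 3138 with the block, and 765 to 1278 and 835 to 1472 with 1 array left out. Scaling to a common median gave 1013 and 640, which turned the share of calls that rose from 48.9% to 61.3%. Differences near 0 changed sign. Scaling to a common median gave 0.083 for Sox1 1422205_at, 0.075 for Vim 1450641_at, 0.055 for Sox3 1435192_at, 0.039 for Fabp7 and 0.026 for Sox2. Sox1 1422205_at gave 0.044 with quantile normalization and 0.12 and 0.069 in the blocked fit without pairs 1 and 2, and ranged from -0.15 to 0.072 with 1 array left out. Vim 1450641_at gave 0.0015 with array weights and 0.023 and 0.012 in the blocked fit without pairs 3 and 4 (-0.060 to 0.043 with 1 array left out). The mean of the Sox3 probe sets gave 0.12. Sox3 1435192_at itself gave 0.018 in the blocked fit without pair 4 (-0.082 to 0.019 with 1 array left out). In that blocked fit Fabp7 gave 0.0087 and Sox2ot -0.0070. Sox9 1424950_at gave -0.012 in the blocked fit without pair 1 (-0.079 to 0.28 with 1 array left out). For Elp4 the mean of its 2 unlike probe sets gave 0.65, while 1448535_at itself ranged from -0.25 to 0.039 with 1 array left out. The cause of these changes was not tested. The intervals given are from the fit without the replicate block. With the block the SE fell from 0.19 to 0.070 for Pax6 1419271_at and from 0.14 to 0.065 for Sox9 1451538_at, but hardly for Fabp7 (0.083 and 0.082). The number of arrays also limits the precision. Intervals this wide do not show that the markers that did not pass were equal at both temperatures.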
